A study of Mus musculus with 44 samples.

Results

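Gene expression of lymph node dendritic cells was compared between pairs of timepoints in control mice injected with tumour cells. The members of a pair lie 12 h apart. The mean of ZT3 and ZT15 was set against the mean of ZT9 and ZT21 in 20 of the 44 libraries of the series, with 5 libraries per timepoint and therefore 10 on each side. ZT (zeitgeber time) counts the hours after lights on in a 12 h light, 12 h dark cycle, so that ZT3 and ZT9 fall in the light phase and ZT15 and ZT21 in the dark phase. A gene that alternates rises and falls every 6 h, and a difference between the sides is independent of any difference between ZT3 and ZT15 or between ZT9 and ZT21. Of the 14699 genes in the table, 11963 reached 1 CPM (reads per 1000000 reads on genes) in at least 5 of the 44 libraries and were tested.

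The control mice, labelled WT (wild type), were female and 8 to 12 weeks old. They received B16-F10-OVA cells, a mouse melanoma line that expresses ovalbumin, under the skin, and CD45+CD11c+MHCIIhigh cells were sorted from the draining inguinal lymph node 24 h later. Another 12 libraries came from control mice injected with PBS (sham, 3 per timepoint), and 12 from Clec9a-cre:Bmal1flox mice with tumour cells (Bmal1ΔcDC, 3 per timepoint), homozygous for the floxed allele, in which Cre is expressed from Clec9a, a gene of conventional dendritic cells and their precursors. Arntl, which encodes BMAL1, was not lower in the latter, which are therefore named by their label. Each library was made from the cells of 1 mouse.

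Dendritic cells take up antigen in tissues, travel to the lymph node and present it to T cells on MHC molecules. Those with high MHC class II in a skin-draining node are largely mature cells that arrived from the skin, and resident dendritic cells, macrophages and monocytes can enter the same gate. The circadian clock drives many genes with a period of about a day, whereas rhythms with a shorter period are known for some stress and metabolic genes. Immediate early genes, such as those of the FOS, JUN and EGR families, are transcribed within minutes of a stimulus without new protein synthesis and are also known to respond to the handling and dissociation of tissue.

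The design sets limits to every value below. With 4 timepoints at an interval of 6 h, a rhythm with a period of 12 h can be seen in 1 phase only. The methods describe shifted light cabinets for timepoints that were studied at once, without saying which mice of this experiment were handled together, and the legends name 2 independent experiments without the labels giving the mice of each. The contrast and a shared session of ZT3 with ZT15, or of ZT9 with ZT21, cannot be told apart.

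The depth of the sides overlapped, with 20406761 to 28962671 reads on genes at ZT3 and ZT15 and 20088012 to 25401545 at ZT9 and ZT21 (two-sided permutation test, p = 0.156, 10 libraries a side). The 50 genes with the most reads held 23.5% to 31.1% of all CPM at ZT3 and ZT15 and 23.4% to 26.3% at ZT9 and ZT21 (permutation test, p = 0.0401, 0.161 after adjustment over 4 library measures). Ccr7, the chemokine receptor that guides mature dendritic cells to the node, lay between 4260 and 6342 CPM, Fscn1, an actin-bundling protein of mature dendritic cells, between 4151 and 7294 CPM and Cd74, the invariant chain of MHC class II, between 8299 and 17565 CPM over the 20 libraries.

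The sides differed in 1137 of the 11963 genes (9.5%; limma, adjusted p under 0.05). Of these, 279 (2.33%) were higher at ZT3 and ZT15 and 858 (7.17%) were higher at ZT9 and ZT21. An unadjusted p under 0.05 was found for 2947 genes. In the same model, the differences of ZT3 from ZT15 and of ZT9 from ZT21, tested together as the components of a 24-h period, were called for 22 genes (0.184%). This count was not stable. It came to 670 under array weights, 1 if ZT9 replicate 3 was omitted and 257 if ZT3 replicate 3 was. The median log2 difference, counted as ZT3 and ZT15 minus ZT9 and ZT21 throughout, was 0.59 for the 279 genes, -0.50 for the 858 genes and -0.07 for all genes tested. A change of at least 2-fold was found in 50 genes higher at ZT3 and ZT15 and in 65 genes higher at ZT9 and ZT21.

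The split between the sides depends on how libraries are scaled. When libraries were scaled by the median of ratios instead of their total, 517 genes were higher at ZT3 and ZT15 and 494 were higher at ZT9 and ZT21, and the median over all genes moved up by 0.09 on the log2 scale. All 279 genes of the ZT3 and ZT15 side were called again, whereas 494 of the 858 genes of the ZT9 and ZT21 side were called and 364 were not. The called genes given below with their CPM kept their side and their call under this scaling.

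**Figure D1:**
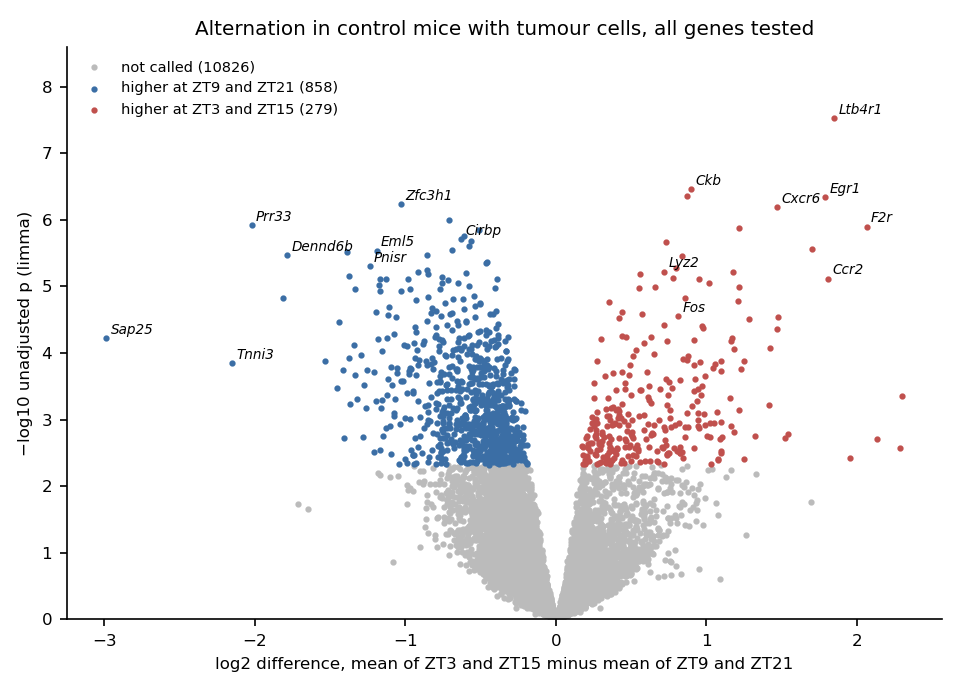
Log2 difference between the sides (x axis, ZT3 and ZT15 minus ZT9 and ZT21) and the unadjusted p on a negative log10 scale (y axis) for the 11963 genes tested, 1 point per gene, with called genes coloured by side. Of the called genes, 279 lie on the right and 858 on the left.

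The order of the timepoint means in called genes is described here without a test, since the calls come from the same contrast and libraries. In 1094 of the 1137 genes (255 and 839 on the 2 sides), both timepoint means of one side lay above both means of the other, as did 5404 (45.2%) of all genes tested, and in 63 and 245 genes each of the 4 pairwise differences had an unadjusted p under 0.05. The sides were not symmetrical. Of the 279 genes higher at ZT3 and ZT15, 224 had a higher mean at ZT15 than at ZT3, and 55 the reverse. Of the 858 genes higher at ZT9 and ZT21, 781 had a lower mean at ZT15 than at ZT3. The mean of the latter was higher at ZT9 than at ZT21 in 532 genes and lower in 326.

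Some libraries went against their side. For the 858 genes higher at ZT9 and ZT21, ZT3 replicate 4 was at or above the median of the opposite side in 261 genes (30.4%) and ZT3 replicate 1 in 238 genes (27.7%). ZT15 replicate 2 did so in 68 genes (7.93%), and the other libraries of ZT3 and ZT15 in at most 5.36%. For the 279 genes higher at ZT3 and ZT15, ZT3 replicate 4 was at or below the opposite median in 47 genes (16.8%). ZT3 replicate 5 did so in 32 genes (11.5%), and ZT21 replicate 3 was at or above its opposite median in 36 genes (12.9%). The other libraries were past it in at most 9.32%. Without ZT3 replicate 4, 1457 genes were called, and without ZT3 replicate 2, 733 were called, 169 and 564 on the 2 sides.

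The genes in which all 10 libraries of one side lay above all 10 of the other were few, and were looked up after their values were seen. They were Ccr2, F2r, Ltb4r1 and Slc35c2 on the ZT3 and ZT15 side (0.0334% of the genes tested) and Ccdc171, Dnajc2, Mdp1, Pabpn1 and Slc50a1 on the ZT9 and ZT21 side (0.0418%). F2r, the thrombin receptor PAR1, stood at 13.6, 12.7, 10.2, 10.1 and 4.68 CPM at ZT3 and at 14.3, 6.02, 6.63, 7.39 and 5.34 CPM at ZT15. At ZT9 it was at 1.70, 2.83, 1.25, 1.80 and 3.39 CPM and at ZT21 at 0, 1.45, 2.84, 1.76 and 1.99 CPM. Its log2 difference was 2.06 (standard error 0.29, limma adjusted p = 0.00152). Ltb4r1, a receptor for the leukotriene B4 that attracts leukocytes, held 3.29, 4.17, 2.00, 1.49 and 1.27 CPM at ZT3 and 3.66, 1.35, 0.829, 2.11 and 1.81 CPM at ZT15, and did not exceed 0.491 CPM in any library of ZT9 or ZT21 (1.85, standard error 0.20, limma adjusted p = 0.000355).

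By number, immediate early genes were the gene group of ZT3 and ZT15 with the most members called. By share, the macrophage and monocyte markers came first (75%). Of 27 genes in a list of immediate early and dissociation stress genes, 16 were higher at ZT3 and ZT15 (59.3%, against 2.33% of all genes). None was higher at ZT9 and ZT21, and 26 had a positive difference. The list had a median log2 difference of 0.48, against -0.07 over all genes. The 16 genes comprised the AP-1 subunits Fos, Fosb, Fosl2, Jun, Junb and Jund, the zinc finger transcription factors Egr1, Egr2 and Klf2, the orphan nuclear receptor Nr4a1, and Ier2 and Ier3. Genes for proteins that end such responses were also among them, namely the phosphatases Dusp1 and Dusp2, the cytokine signalling inhibitor Socs3 and Zfp36, which promotes the decay of cytokine mRNAs. Leaving out single libraries gave 12 to 18 called members.

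The upstream sequences of Fos, Junb and Dusp1 are shown because CREB and ATF factors, which switch on immediate early genes, recognise a site with the core TGACG. They are the bases directly upstream of the annotated start in RefSeq (GRCm38.p6), written 5′ to 3′ on the strand of the gene, and capitals mark TGACG or its reverse complement CGTCA. Fos lies on the plus strand (chr12:85473760-85473889), Junb on the minus strand (chr8:84978749-84978878) and Dusp1 on the minus strand (chr17:26508473-26508672).
Fos: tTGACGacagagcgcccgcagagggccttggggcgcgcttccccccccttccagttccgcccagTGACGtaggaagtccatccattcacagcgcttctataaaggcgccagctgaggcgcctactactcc
Junb: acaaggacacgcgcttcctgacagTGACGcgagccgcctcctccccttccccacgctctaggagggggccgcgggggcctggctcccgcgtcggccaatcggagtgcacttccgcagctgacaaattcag
Dusp1: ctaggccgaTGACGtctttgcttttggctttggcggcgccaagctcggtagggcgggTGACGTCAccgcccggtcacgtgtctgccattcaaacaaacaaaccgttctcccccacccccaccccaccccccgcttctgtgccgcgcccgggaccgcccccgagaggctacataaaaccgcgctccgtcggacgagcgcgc

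Within 250 bases upstream of the start, TGACG on either strand was found in 12 of 24 immediate early genes with a promoter in the table (50%), in 8 of 17 heat shock genes (47.1%) and in 25 of 57 genes for splicing factors (43.9%). It was found in 26.9% of the 9626 promoters of genes tested and in 31.6% of 699 genes higher at ZT9 and ZT21. The E-box CACGTG, the site of the clock proteins BMAL1 and CLOCK, was present in 6 of the 24 immediate early genes (25%), against 8.32% of all promoters and 7.30% of the genes higher at ZT9 and ZT21. The promoters differed in base composition, with a median GC content of 65.2% and 20.5 CG dinucleotides in immediate early genes, 63.6% and 20 in heat shock genes and 59.6% and 16 over all promoters, and both TGACG and CACGTG contain CG. The part of base composition in these shares was not tested. The CArG box of serum response factor was present in 1 of the 24 and in 1.11% of all. These are matches of letters, and for the 279 genes higher at ZT3 and ZT15 the check is void, since 77.4% of them had a promoter in the table.

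Egr1 (chromosome 18, 34861207 to 34864956 in GRCm38.p6) had the largest difference of the immediate early genes. It stood at 306, 234, 204, 98.2 and 190 CPM at ZT3 and at 350, 318, 315, 310 and 197 CPM at ZT15. At ZT9 the values were 91.9, 78.8, 51.6, 54.2 and 38.6 CPM, and at ZT21 they were 58.5, 56.1, 167, 105 and 51.0 CPM. In 9 of the 10 libraries of ZT3 and ZT15, Egr1 was above every library of ZT9 and ZT21, and ZT3 replicate 4 was the exception. The mean log2 difference was 1.79 (standard error 0.24, limma adjusted p = 0.00129), a fold of 3.45.

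Fos (chromosome 12, 85473890 to 85477274) was at 984, 801, 709, 524 and 582 CPM at ZT3, 591, 529, 319, 373 and 359 CPM at ZT9, 881, 911, 798, 1016 and 676 CPM at ZT15, and 374, 405, 667, 529 and 371 CPM at ZT21. The sides overlapped in ZT3 replicates 4 and 5, which were below ZT21 replicate 3. Its log2 difference was 0.81 (standard error 0.15, limma adjusted p = 0.00386). Ier2 held 139 to 289 CPM at ZT3, 164 to 284 CPM at ZT15, 79.2 to 167 CPM at ZT9 and 90.8 to 157 CPM at ZT21, with a difference of 0.95 (standard error 0.16, limma adjusted p = 0.00216). In Socs3, 8 of the 10 libraries of ZT3 and ZT15 exceeded the highest of the other side (1.22, standard error 0.20, limma adjusted p = 0.00237).

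The library order was much alike in further members, which were singled out after their values were seen. Nr4a1 was at 185, 105, 58.6, 68.7 and 95.9 CPM at ZT3, 83.1, 41.9, 34.6, 32.2 and 34.6 CPM at ZT9, 133, 119, 101, 103 and 54.2 CPM at ZT15, and 46.7, 31.6, 74.6, 50.5 and 43.1 CPM at ZT21 (1.09, standard error 0.23, limma adjusted p = 0.00763). ZT9 replicate 1 and ZT21 replicate 3 were the highest of their groups, as in Egr1 and Fos, and ZT15 replicate 5 was the lowest of its group in all 3 genes. Jun (0.50) had an order of its own, with ZT3 replicate 4 highest at 394 CPM. Fosb (0.71, limma adjusted p = 0.0354) lost its call in 11 of the 20 fits that left out 1 library.

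**Figure D2:**
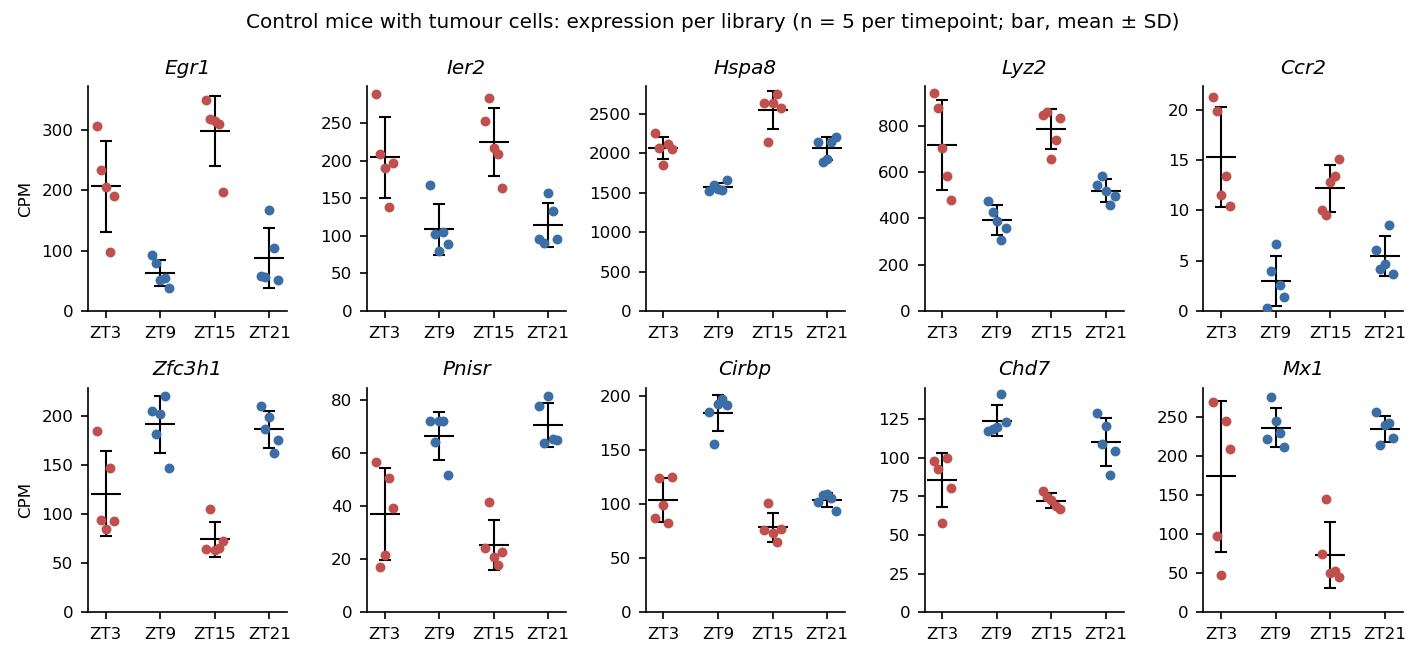
CPM per library (y axis, linear from 0) at ZT3, ZT9, ZT15 and ZT21 (x axis) for 5 genes higher at ZT3 and ZT15 (Egr1, Ier2, Hspa8, Lyz2, Ccr2) and 5 higher at ZT9 and ZT21 (Zfc3h1, Pnisr, Cirbp, Chd7, Mx1). Each point is 1 of 5 mice and bars mark the mean ± SD, and ZT3 replicates 1 and 4 are seen near the level of ZT9 and ZT21 for Zfc3h1 and Mx1.

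Tnf, an inflammatory cytokine chosen after its values were seen, was at 67.8, 51.6, 52.1, 25.1 and 59.8 CPM at ZT3 and 92.1, 103, 59.5, 60.1 and 37.2 CPM at ZT15. At ZT9 it was at 26.4, 32.2, 16.6, 25.7 and 13.8 CPM and at ZT21 at 20.9, 23.6, 51.8, 31.3 and 23.9 CPM. ZT3 replicates 2 and 4 and ZT15 replicate 5 were within the range of the other side, in which ZT21 replicate 3 was the highest. The log2 difference of Tnf was 1.16 (standard error 0.23, limma adjusted p = 0.00562). Nfkbiz, a nuclear cofactor of NF-kB, differed by 0.98 (standard error 0.18, limma adjusted p = 0.00475), and Tnfsf9, the co-stimulatory ligand 4-1BBL, by 0.92 (standard error 0.21, limma adjusted p = 0.0127). In a list of 22 NF-kB genes, with a median of -0.03, Nfkbiz was the only gene higher at ZT3 and ZT15 (4.55%, against 2.33% of all genes), while Birc2 (-0.46) and the kinase gene Chuk (-0.66) were higher at ZT9 and ZT21 (9.09%, against 7.17%). With median-of-ratios scaling 3 genes of this list were higher at ZT3 and ZT15 and 2 at ZT9 and ZT21.

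Of 26 chemokine genes, 5 were higher at ZT3 and ZT15 (19.2%, against 2.33% of all genes) and 1 at ZT9 and ZT21 (3.85%, against 7.17%), with a median of 0.32. The 5 were Ccl3 (0.96) and Ccl4 (1.16), inflammatory chemokines that attract leukocytes, Ccl2 (1.03), the ligand of CCR2, and Cxcl9 (0.59) and Cxcl10 (0.76), ligands of CXCR3. Ccl4 was at 5.59 to 11.1 CPM at ZT3 and 5.54 to 23.5 CPM at ZT15, against 1.04 to 6.58 CPM at ZT9 and 3.45 to 6.75 CPM at ZT21. ZT9 was the lowest apart from its replicate 1, and ZT3 and ZT15 overlapped with ZT21. Cxcl9 was highest at ZT15 (14.7 to 31.6 CPM) and did not alternate, since its mean at ZT21 was no lower than at ZT3 on the log2 scale. Ccl19, which attracts CCR7-bearing cells, was higher at ZT9 and ZT21 (-0.41), a call that was lost with median-of-ratios scaling.

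Heat shock genes formed another group on this side, with 7 of 20 higher at ZT3 and ZT15 (35%, against 2.33% of all genes). None was higher at ZT9 and ZT21, and all 20 had a positive difference (median 0.23, against -0.07 over all genes). The 7 were the HSP70 family genes Hspa8 and Hsph1, the cytosolic HSP90 genes Hsp90aa1 and Hsp90ab1, the co-chaperones Dnajb1 and Dnaja1, and Fkbp4, an HSP90-binding immunophilin. Leaving out single libraries gave 5 to 8 called members. Hspa8 was at 2253, 2071, 1854, 2117 and 2051 CPM at ZT3 and 2645, 2144, 2643, 2759 and 2578 CPM at ZT15. At ZT9 it was at 1528, 1596, 1546, 1534 and 1659 CPM and at ZT21 at 2143, 1891, 1924, 2142 and 2211 CPM. Every library of ZT9 was below every other library, whereas ZT3 and ZT21 overlapped, and the log2 difference was 0.35 (standard error 0.06, limma adjusted p = 0.00304).

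Dnajb1 showed the same order, with 62.3 to 71.3 CPM at ZT9, 74.9 to 110 CPM at ZT21, 80.4 to 117 CPM at ZT3 and 109 to 119 CPM at ZT15 (0.44, standard error 0.08, limma adjusted p = 0.00374). Hsp90aa1 (0.47) and Fkbp4 (0.46) were called without alternating, since their means at ZT21 were no lower than at ZT3 on the log2 scale. The bases upstream of Dnaja1 (plus strand, chr4:40722338-40722467, GRCm38.p6) are given as an example of a match to GAANNTTC, the core of the heat shock element, in capitals.
Dnaja1: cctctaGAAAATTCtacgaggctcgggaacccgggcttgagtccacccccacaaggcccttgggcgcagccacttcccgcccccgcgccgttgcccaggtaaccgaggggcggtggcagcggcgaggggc

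GAANNTTC, which is its own reverse complement, was found upstream of 6 of 17 heat shock genes (35.3%) and of 5.07% of all genes with a promoter in the table.

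Markers of macrophages and monocytes were higher at ZT3 and ZT15 in 12 of 16 genes (75%, against 2.33% of all genes). The list had a median log2 difference of 0.61 and a positive difference in 15. The 12 included the lysozyme gene Lyz2, the chemokine receptors Ccr2 and Cx3cr1, the complement genes C1qa, C1qb and C1qc, the lipopolysaccharide co-receptor Cd14, the Fc receptor Fcgr1, and Cd68, Adgre1 and Ly6c2. The summed level of the list was 870 to 1384 CPM at ZT3 and ZT15 (median 1251) and 636 to 964 CPM at ZT9 and ZT21 (median 829). Fewer cells of a type and less RNA per cell cannot be told apart in these bulk samples. Without ZT3 replicate 2, 5 members were called, and in the other fits that left out 1 library up to 11.

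Lyz2 (chromosome 10, 117277541 to 117282272) held 941, 879, 706, 584 and 482 CPM at ZT3, 476, 429, 389, 306 and 358 CPM at ZT9, 847, 859, 657, 741 and 834 CPM at ZT15, and 544, 585, 521, 456 and 496 CPM at ZT21. Apart from ZT3 replicates 4 and 5, the libraries of ZT3 and ZT15 were above all others (0.72, standard error 0.12, limma adjusted p = 0.00216). Its neighbour Lyz1 (0.84, limma adjusted p = 0.0018) is a close copy of Lyz2, and reads may be shared between them. Ccr2, the receptor by which monocytes leave the bone marrow, was at 21.3, 19.8, 11.5, 13.4 and 10.4 CPM at ZT3 and 9.99, 9.56, 12.9, 13.4 and 15.1 CPM at ZT15. Its ZT9 values were 0.288, 3.96, 6.70, 2.62 and 1.38 CPM and at ZT21 at 6.11, 4.14, 4.69, 8.57 and 3.67 CPM. The sides did not overlap, and the log2 difference was 1.81 (standard error 0.30, limma adjusted p = 0.00216).

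Further genes were among the 12 with the smallest p on this side. Cfp, the complement factor properdin, was at 20.3 to 35.5 CPM at ZT3 and 26.2 to 36.8 CPM at ZT15, against 9.28 to 13.9 CPM at ZT9 and 16 to 25.6 CPM at ZT21 (0.87, standard error 0.12, limma adjusted p = 0.00129). Tgfbi, an extracellular matrix protein (0.78), Gm2a, a lysosomal cofactor of ganglioside breakdown (0.56), and the surface protein gene Ly6e (0.73) were called as well. Ckb, a creatine kinase, was at 11.5 to 17.3 CPM at ZT3, 17.8 to 27.1 CPM at ZT15, 6.85 to 9.28 CPM at ZT9 and 7.85 to 15.8 CPM at ZT21 (0.90, standard error 0.12, limma adjusted p = 0.00129). Cxcr6, a receptor of T and NK cells, differed by 1.47 (standard error 0.20, limma adjusted p = 0.00129), with 12.7 to 39.8 CPM at ZT3 and ZT15 and 4.55 to 16.5 CPM at ZT9 and ZT21. Rasgef1b, a gene for an exchange factor of small GTPases, completed the 12 genes with the smallest p (0.80).

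Markers of type 2 conventional dendritic cells were higher at ZT3 and ZT15 in 7 of 13 genes (53.8%, against 2.33% of all genes). The median of the list was 0.45, and no member was higher on the other side. Among the 7, Cd4 was also on the list of T cell markers. Cd209a, the mouse counterpart of the lectin DC-SIGN, was at 11, 16.7, 8.58, 17.3 and 5.48 CPM at ZT3, 6.86, 4.88, 0.129, 3.36 and 2.17 CPM at ZT9, 15.1, 17.9, 10.9, 28.8 and 28.1 CPM at ZT15, and 17.2, 6.03, 20.4, 6.01 and 2.51 CPM at ZT21. ZT21 replicates 1 and 3 were as high as most of ZT3 and ZT15, so that 2 libraries lay above the other side (1.54, standard error 0.42, limma adjusted p = 0.0281). Cd209e (1.52) and the lectin gene Mgl2 (1.33), which did not alternate, were also high in ZT21 replicates 1 and 3. Csf1r, the receptor of macrophage colony-stimulating factor, differed by 0.92 (standard error 0.19, limma adjusted p = 0.00827). Without ZT3 replicate 2, 3 members of the list were called, and Cd209a, Cd209e and Mgl2 lost their call in 3, 6 and 6 of the 20 fits that left out 1 library.

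MHC class II genes were higher at ZT3 and ZT15 in 4 of 11 cases (36.4%, against 2.33% of all genes). The list had a median of 0.28 and a positive difference in 10. The 4 were H2-DMa (0.41), H2-Ab1 (0.39), Cd74 (0.35) and H2-DMb1 (0.30). With the replicate number as a block, none of the 4 was called. Cd74 was at 9341, 11227, 17565, 9941 and 10841 CPM at ZT3 and 14198, 11723, 11282, 13350 and 16209 CPM at ZT15. Its ZT9 libraries were at 10418, 9140, 8359, 9335 and 8299 CPM and at ZT21 at 9370, 9791, 9820, 10872 and 11590 CPM. The sides overlapped and ZT3 replicate 3 stood far above its group (limma adjusted p = 0.0396). Over the 20 fits that left out 1 library, H2-DMa was called in 10, Cd74 in 8, H2-Ab1 in 7 and H2-DMb1 in 6, and none of the 4 without ZT3 replicate 2. NK cell markers were higher at ZT3 and ZT15 in 3 of 14 genes (21.4%, against 2.33% of all genes), with a median of 0.36. The 3 were Ncr1 (1.42), Klrb1c (1.08) and Il2rb (0.66). Over the 20 libraries, Ncr1 and Klrb1c had low means of 1.32 and 1.15 CPM, each with 2 libraries at 0, and Il2rb had 24.9 CPM. Klrk1 (mean 44.6 CPM), Nkg7 (21.4 CPM) and Klrd1 (16.9 CPM) were not called. Other settings gave 1 to 4 called NK cell markers. The summed level of the NK cell markers was 117 to 163 CPM at ZT3 and ZT15 and 89.4 to 132 CPM at ZT9 and ZT21.

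Among other cell types, 1 of 27 T cell markers was higher at ZT3 and ZT15 (3.70%, near the 2.33% of all genes). Of 14 B cell markers, 0 were called. The summed T cell markers were 1027 to 1332 CPM at ZT3 and ZT15 and 837 to 1535 CPM at ZT9 and ZT21. Of the granulocyte markers, 5 of 11 were tested and none was called, and their sum was 3 to 28.7 CPM on the first side and 0.513 to 4.28 CPM on the other. The part of these cells in the other results was not tested, apart from a fit with the mean of T cell markers as a covariate. In this fit, 182 genes were higher at ZT3 and ZT15 and 635 at ZT9 and ZT21, against 279 and 858 without it.

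**Figure D3:**
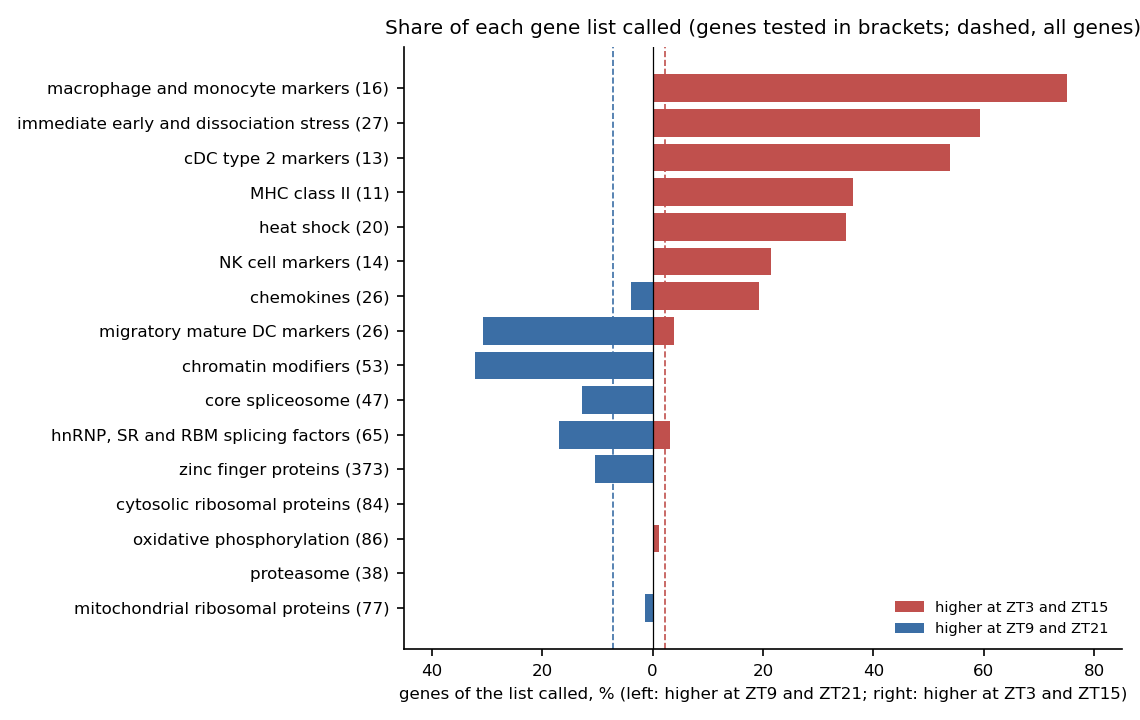
Percent of the tested genes of each list (y axis, number tested in brackets) called as higher at ZT9 and ZT21 (bars to the left) or at ZT3 and ZT15 (bars to the right), with dashed lines at the shares of all genes (7.17% and 2.33%). The macrophage and monocyte markers (75%) and the immediate early genes (59.3%) have the longest bars to the right, and the chromatin modifiers (32.1%) the longest to the left.

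On the side of ZT9 and ZT21, genes for nuclear proteins that act on chromatin and RNA were called. Of 53 chromatin modifier genes, 17 were higher at ZT9 and ZT21 (32.1%, against 7.17% of all genes) and none at ZT3 and ZT15. A positive difference was found in 3 of the list (median -0.31, against -0.07 over all genes). The 17 comprised the histone H3K4 methyltransferases Kmt2a, Kmt2b and Setd1a, the related Kmt2e, Ash1l and the H3K36 methyltransferase Setd2, the remodellers Chd6, Chd7, Atrx and Ep400, the DNA demethylases Tet2 and Tet3, and Baz2b, Trrap, Kat6b, Ncor1 and the H3K27 methyltransferase Ezh2. With median-of-ratios scaling 12 of the list were called (22.6%, against 4.13% of all genes), and without ZT3 replicate 2 there were 13.

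Chd7, a chromatin remodeller, was at 98.1, 92.6, 57.6, 99.8 and 80.2 CPM at ZT3 and 78.7, 74.4, 72.9, 68.5 and 67.1 CPM at ZT15. At ZT9 it was at 117, 118, 120, 141 and 123 CPM and at ZT21 at 129, 109, 120, 88.6 and 104 CPM. All libraries of ZT9 were above those of ZT3 and ZT15, and ZT21 replicate 4 was below 3 libraries of ZT3 (-0.57, standard error 0.10, limma adjusted p = 0.00237). Atrx was at 142 to 237 CPM at ZT3, 144 to 188 CPM at ZT15, 226 to 256 CPM at ZT9 and 221 to 277 CPM at ZT21 (-0.50, standard error 0.09, limma adjusted p = 0.00309). Setd2 (-0.47), Baz2b (-0.60) and Kmt2a (-0.56) had 8 libraries of ZT3 and ZT15 below the lowest of the other side, with ZT3 replicates 1 and 4 as the highest of ZT3. The bases upstream of Atrx (minus strand, chrX:105929373-105929502, GRCm38.p6) are shown for comparison, with TGACG in capitals.
Atrx: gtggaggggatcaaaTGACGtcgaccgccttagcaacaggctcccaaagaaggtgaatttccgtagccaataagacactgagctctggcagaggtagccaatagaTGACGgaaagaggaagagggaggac

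Zfc3h1 (chromosome 10, 115384799 to 115432772), which directs nuclear polyadenylated RNA to the exosome for decay, had the smallest p of the named genes on this side. It was at 185, 94.2, 84.4, 147 and 93.2 CPM at ZT3 and 64.8, 105, 63.0, 65.8 and 72.8 CPM at ZT15. At ZT9 it was at 205, 182, 202, 221 and 146 CPM and at ZT21 at 210, 186, 199, 162 and 175 CPM. All 10 libraries of ZT9 and ZT21 exceeded those of ZT15, and ZT3 replicates 1 and 4 reached into their range (-1.03, standard error 0.14, limma adjusted p = 0.00129). Pnisr, a serine- and arginine-rich protein of nuclear speckles chosen after its values were seen, was at 56.9, 17.2, 21.6, 50.7 and 39.3 CPM at ZT3, 72.2, 64.1, 72.3, 72.2 and 51.9 CPM at ZT9, 24.5, 41.8, 20.8, 17.9 and 22.9 CPM at ZT15, and 77.9, 64.1, 81.6, 65.4 and 65.0 CPM at ZT21. Of ZT3 and ZT15, only ZT3 replicate 1 was above the lowest of the other side (-1.24, standard error 0.20, limma adjusted p = 0.00216).

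Of 65 genes for hnRNP, SR and RBM splicing factors, 11 were higher at ZT9 and ZT21 (16.9%, against 7.17% of all genes) and 2, Rbm14 and Hnrnpab, were higher at ZT3 and ZT15 (3.08%, against 2.33%), with a median of -0.10. The 11 comprised the SR proteins Srsf5, Srsf7 and Srsf11, the hnRNPs Hnrnpdl, Hnrnph1, Hnrnph3 and Hnrnpa2b1, and Rbm5, Rbm25, Rbm26 and Rbm48. With median-of-ratios scaling, 8 genes of the list were higher at ZT9 and ZT21 (12.3%, against 4.13% of all genes). Srsf5 was at 326, 200, 208, 305 and 335 CPM at ZT3, 399, 339, 369, 360 and 324 CPM at ZT9, 183, 294, 145, 130 and 123 CPM at ZT15, and 305, 290, 368, 326 and 287 CPM at ZT21. ZT3 and ZT21 overlapped, and ZT15 replicate 2 stood apart from its group (-0.67, standard error 0.14, limma adjusted p = 0.00868). Hnrnpdl (-0.73), Rbm25 (-0.48) and Hnrnph3 (-0.39) were called too.

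In the core spliceosome, 6 of 47 genes were higher at ZT9 and ZT21 (12.8%, against 7.17% of all genes) and none was higher at ZT3 and ZT15. The median of the list, -0.05, was not below that of all genes (-0.07). They included Prpf40b, Prpf39, Prpf38b, Prpf4b and Sf3b1, a subunit of the U2 particle. Prpf38b was at 56.2 to 150 CPM at ZT3 and 77.3 to 132 CPM at ZT15, against 141 to 169 CPM at ZT9 and 141 to 175 CPM at ZT21 (-0.69, standard error 0.14, limma adjusted p = 0.00709). Pnn, a speckle protein that binds SR proteins, had -0.72 (standard error 0.13, limma adjusted p = 0.00451). The kinases Clk1 (-0.95, limma adjusted p = 0.0127) and Clk4 (-0.78, limma adjusted p = 0.0165), which phosphorylate SR proteins, were higher at ZT9 and ZT21 too, and these 3 genes were looked up after their values were seen. In Clk1, ZT3 replicates 1 and 4, at 191 and 188 CPM, and ZT15 replicate 2, at 158 CPM, lay within the 151 to 224 CPM of the other side, while the remaining 7 libraries were between 53.2 and 125 CPM.

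Cirbp, an RNA-binding protein induced by mild cold, was at 87.3, 124, 99.1, 82.5 and 125 CPM at ZT3, 185, 156, 193, 197 and 191 CPM at ZT9, 76.2, 101, 73.6, 65.3 and 76.7 CPM at ZT15, and 102, 109, 110, 106 and 93.9 CPM at ZT21. ZT9 was above all other libraries, ZT15 was mostly the lowest, and ZT3 and ZT21 overlapped (-0.63, standard error 0.09, limma adjusted p = 0.00173). Htra2, a mitochondrial serine protease, was at 281 to 395 CPM at ZT3, 225 to 302 CPM at ZT15, 407 to 491 CPM at ZT9 and 377 to 438 CPM at ZT21 (-0.51, standard error 0.07, limma adjusted p = 0.00152). Also among the smallest p were Insr, the insulin receptor (-0.69), Ktn1, a kinesin-binding protein of the endoplasmic reticulum (-0.56), Mtif2, a mitochondrial translation initiation factor (-0.61), Ttf1, a termination factor of RNA polymerase I (-0.58), Rab26, a small GTPase (-0.71), Eml5, a microtubule-associated protein (-1.19), and the F-box protein gene Fbxl12 (-0.85).

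The largest differences on this side were found in genes at a low level, such as Sap25 (-2.99, limma adjusted p = 0.00553), Tnni3 (-2.15, limma adjusted p = 0.00807), Prr33 (-2.02, limma adjusted p = 0.00152), Catsperg1 (-1.81, limma adjusted p = 0.0029) and Dennd6b (-1.78, limma adjusted p = 0.0018). Tnni3 encodes cardiac troponin I and Catsperg1 a subunit of a sperm calcium channel. Sap25, a gene for a SIN3-associated protein, was at 7.06, 0, 0.0847, 4.19 and 0 CPM at ZT3 and 0, 8.85, 0, 0.0613 and 0 CPM at ZT15. It was at 11, 10.6, 7.80, 5.85 and 3.96 CPM at ZT9 and 12.2, 13.6, 8.51, 7.56 and 8.10 CPM at ZT21. In ZT3 and ZT15, 3 libraries (ZT3 replicates 1 and 4 and ZT15 replicate 2) were at the level of the other side and the other 7 were at or near 0. The same 3 libraries were the highest of their timepoints in Tnni3, at 11, 12.2 and 5.81 CPM.

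Zinc finger proteins of the Zfp, Zbtb, Zkscan and Zscan families, mostly DNA-binding repressors, were higher at ZT9 and ZT21 in 39 of 373 genes (10.5%, against 7.17% of all genes) and at ZT3 and ZT15 in 1, Zfp36, which is an RNA-binding protein (median -0.22). Median-of-ratios scaling gave 24 of them (6.43%, against 4.13% of all genes) and leaving out ZT15 replicate 1 gave 20. Zfp182 was at 9.82 to 17.3 CPM at ZT3, 5.83 to 11.6 CPM at ZT15, 17.6 to 25.8 CPM at ZT9 and 14.5 to 26.8 CPM at ZT21 (-0.85, standard error 0.14, limma adjusted p = 0.00216). Zfp950 had -1.15 (standard error 0.23, limma adjusted p = 0.00648).

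Of 26 markers of migratory mature dendritic cells, 8 were higher at ZT9 and ZT21 (30.8%, against 7.17% of all genes). Another 1, Marcksl1, was higher at ZT3 and ZT15 (3.85%, against 2.33% of all genes), and the median was -0.11. The summed level of the 26 markers was 45454 to 51915 CPM at ZT3 and ZT15 and 47104 to 52064 CPM at ZT9 and ZT21. The 8 were Il15ra, which presents interleukin-15 to neighbouring cells, the adenylate cyclase Adcy6, the transporter Slco5a1, the apoptosis inhibitor Birc2, Zmynd15, Cacnb3, Nudt17 and Samsn1. Il15ra was at 411, 247, 186, 363 and 339 CPM at ZT3, 406, 375, 411, 451 and 405 CPM at ZT9, 237, 362, 236, 215 and 220 CPM at ZT15, and 386, 415, 405, 394 and 372 CPM at ZT21. ZT3 replicate 1 alone exceeded the lowest of the other side (-0.56, standard error 0.13, limma adjusted p = 0.011). Of 10 markers of dendritic cells in general, 2 (Cd74 and H2-Ab1) were higher at ZT3 and ZT15 (20%, against 2.33% of all genes). The median was 0.14, and 1 marker was higher at ZT9 and ZT21 (10%, against 7.17% of all genes). The latter was Flt3, the cytokine receptor on which dendritic cells depend (-0.31, standard error 0.08, limma adjusted p = 0.0165).

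Among 42 interferon-stimulated genes, 2 (4.76%) were higher on each side, against 2.33% and 7.17% of all genes, so that the list as a whole did not stand out. Mx1 and Mx2, antiviral GTPases, were higher at ZT9 and ZT21 (-1.25 and -1.17), and Cxcl9 and Cxcl10 were higher at ZT3 and ZT15. Mx1 was at 269, 97.9, 47.5, 245 and 208 CPM at ZT3, 222, 275, 244, 229 and 211 CPM at ZT9, 74.0, 145, 50.0, 52.8 and 44.6 CPM at ZT15, and 255, 214, 239, 241 and 222 CPM at ZT21. All libraries of ZT9 and ZT21 were between 211 and 275 CPM, whereas those of ZT3 fell into a range from 47.5 to 269 CPM (standard error 0.27, limma adjusted p = 0.00873).

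Called genes also differed in gene structure, which the contrast did not use. Genes were matched by name to GENCODE vM21, which held 99.9% of those tested. The median number of exons in the longest transcript was 5 for genes higher at ZT3 and ZT15 and 11 for genes higher at ZT9 and ZT21, against 9 for all genes. Over 5 equal classes of genes from the fewest to the most exons, the share higher at ZT9 and ZT21 went from 3.72% to 10.3%, and the share higher at ZT3 and ZT15 from 4.85% to 0.418%. Median gene spans were 11.7 kb, 24.9 kb and 23.8 kb, and median GC contents of the longest transcript were 52.3%, 47.9% and 49.7%, for the ZT3 and ZT15 side, the ZT9 and ZT21 side and all genes, respectively.

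A transcript annotated with a retained intron was present in 72.8% of genes higher at ZT9 and ZT21, in 43.7% of genes higher at ZT3 and ZT15 and in 59.1% of all genes. Among genes with such a transcript, 8.81% were higher at ZT9 and ZT21 and 1.73% at ZT3 and ZT15, and among genes without one 4.77% and 3.21%. The values are totals per gene, so that spliced and unspliced reads are not separated. Each gene was centred on its mean log2 level. Within single libraries, the median of genes with such a transcript minus that of genes without lay between -0.120 and 0.0451 at ZT3 and ZT15. It lay between -0.00846 and 0.0729 at ZT9 and ZT21. The sides overlapped, with all 5 libraries of ZT15 below 0 and all 5 of ZT9 above 0. The same measure for genes of 17 or more exons relative to those of 4 or fewer was -0.429 to 0.294 at ZT3 and ZT15 (median 0.0521) and -0.120 to 0.319 at ZT9 and ZT21 (median 0.0648), so that the libraries were not separated by exon number over all genes. Over 5 equal classes by mean CPM, the share higher at ZT9 and ZT21 was 2.67% in the lowest class, 9.99% in the third and 7.31% in the highest. The share higher at ZT3 and ZT15 lay between 1.38% and 3.59%. Genes share exon number, length and base composition, and the separate parts of these and of the level in the calls were not tested.

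**Figure D4:**
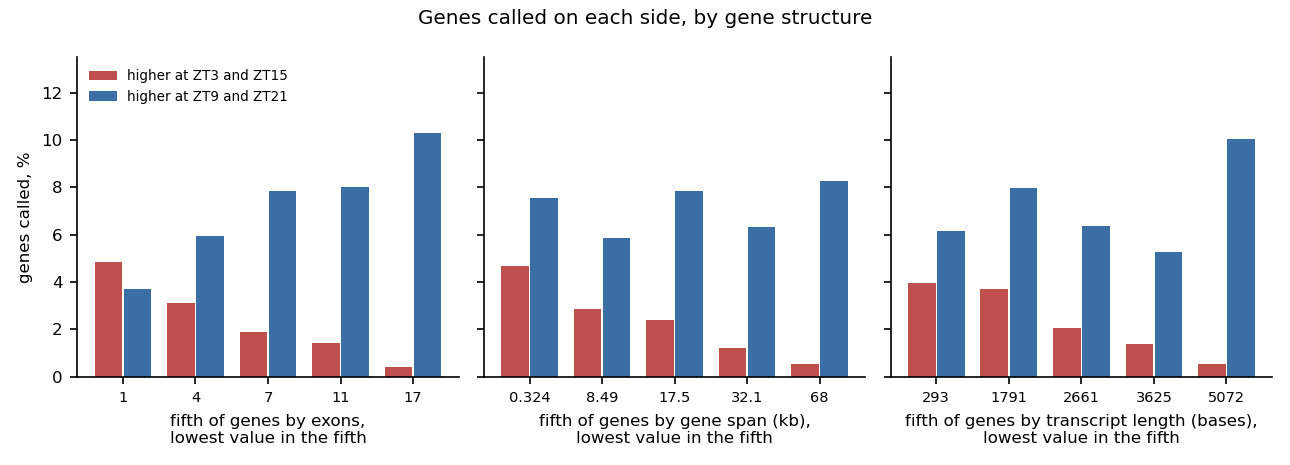
Percent of genes called on each side (y axis) in 5 equal classes of the genes tested by number of exons, gene span and transcript length (x axes, lowest value of each class). From the fewest to the most exons, the share higher at ZT9 and ZT21 goes from 3.72% to 10.3% and the share higher at ZT3 and ZT15 from 4.85% to 0.418%.

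Several housekeeping groups held few or no called genes, where 9.5% of all genes were called on either side. None of 84 cytosolic ribosomal protein genes, 38 proteasome genes or 19 aminoacyl-tRNA synthetase genes was called (limma; at an unadjusted p under 0.05 there were 1, 3 and 1). Of 86 oxidative phosphorylation genes 1 (1.16%) and of 77 mitochondrial ribosomal protein genes 1 (1.30%) were called. Glycolysis genes included 2 of 17 (11.8%, against 2.33% of all genes) that were higher at ZT3 and ZT15, Ldha, the lactate dehydrogenase subunit (0.30, standard error 0.06, limma adjusted p = 0.00553), and the enolase Eno1 (0.33).

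Clock genes were called in 3 of 18 cases, 2 higher at ZT3 and ZT15 (11.1%, against 2.33% of all genes) and 1 higher at ZT9 and ZT21 (5.56%, against 7.17%). Hlf, a PAR bZIP factor, was higher at ZT3 and ZT15 (1.21, limma adjusted p = 0.00152) at a level that did not exceed 1.33 CPM. Bhlhe40, a repressor that also responds to stimulation, was at 260 to 342 CPM at ZT3 and 173 to 405 CPM at ZT15, against 156 to 241 CPM at ZT9 and 145 to 257 CPM at ZT21 (0.62, standard error 0.14, limma adjusted p = 0.0114). Per3 was higher at ZT9 and ZT21 (-1.04, limma adjusted p = 0.0234), with ZT3 replicates 1 and 4 and ZT15 replicate 2 again the highest of their groups. For Arntl (-0.20, limma adjusted p = 0.357), Per1 (-0.19, limma adjusted p = 0.443) and Dbp (-0.11, limma adjusted p = 0.557) the difference did not pass the test. Dbp lay between 33.5 and 48.1 CPM at ZT9 and ZT15 and between 15.3 and 34.1 CPM at ZT3 and ZT21, an order that this contrast does not measure.

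Cd80, a co-stimulatory ligand of CD28, had a difference of 0.01 (standard error 0.12, limma adjusted p = 0.976), with 12.3 to 18.9 CPM at ZT3, 9.5 to 17.2 CPM at ZT9, 7.39 to 12.3 CPM at ZT15 and 10.3 to 12.5 CPM at ZT21. Insig1, a brake on cholesterol synthesis, was called (0.29, standard error 0.08, limma adjusted p = 0.0337) without alternating. This call was lost with the replicate number as a block. Insig1 was at 41.1 to 54.5 CPM at ZT3, 54.4 to 61.0 CPM at ZT9, 35.7 to 50.9 CPM at ZT15 and 19.8 to 28.2 CPM at ZT21, so that ZT9 was the highest and ZT21 the lowest. It shows that a called difference of means need not be an alternation.

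The same contrast was measured in mice that had no part in the calls. In sham-injected control mice, with 3 libraries per timepoint instead of 5, 0 genes were called by limma after adjustment, and 689 passed 0.05 before it (3.13% of all genes higher at ZT3 and ZT15, 2.62% higher at ZT9 and ZT21). With all genes of the table in place of those above the filter, 2 were called. Of the 279 genes higher at ZT3 and ZT15 in control mice with tumour cells, 211 (75.6%) had the same sign in sham mice, against 51.8% of all genes, and the median difference was 0.18. Of the 858 genes higher at ZT9 and ZT21, 453 (52.8%) had the same sign, against 48.2% of all genes, with a median of -0.01. At an unadjusted p under 0.05, 36 of the 279 genes (12.9%) were on the same side and 1 on the opposite side. Of the 858 genes, 26 (3.03%) were on the same side and 17 on the opposite side.

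In Bmal1ΔcDC mice with tumour cells, also with 3 libraries per timepoint, 0 genes were called by limma and 834 passed 0.05 before adjustment (5.12% higher at ZT3 and ZT15, 1.85% higher at ZT9 and ZT21). With an intensity trend 3 genes were called, and in 1 fit of all 44 libraries 43. The sign was the same in 237 of the 279 genes higher at ZT3 and ZT15 (84.9%, against 55.6% of all genes; median 0.28). At an unadjusted p under 0.05, 75 of the 279 (26.9%) were on the same side and 1 on the opposite side. For the 858 genes higher at ZT9 and ZT21, the sign was the same in 519 (60.5%, against 44.4% of all genes; median -0.05). At an unadjusted p under 0.05, 34 of the 858 (3.96%) were on the same side and 12 on the opposite side.

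Heat shock genes had medians of 0.23 in control mice with tumour cells, 0.25 in sham mice and 0.18 in Bmal1ΔcDC mice. Immediate early genes had medians of 0.48, 0.14 and 0.17, macrophage and monocyte markers 0.61, -0.03 and 0.84, and chromatin modifiers -0.31, 0.06 and 0.09, respectively. Differences between these medians were not tested. Egr1 had a difference of 0.25 in sham mice and 0.45 in Bmal1ΔcDC mice, and Ccr2 0.26 and 1.25.

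Called in control mice with tumour cells and at an unadjusted p under 0.05 on the same side in both other groups of mice were 12 genes higher at ZT3 and ZT15 (4.30% of the 279) and 5 higher at ZT9 and ZT21 (0.583% of the 858). Over all genes tested, both other groups passed on the same side in 35 genes (0.293%) and 11 genes (0.0920%), respectively. The 12 were Ccl4, Cox6a2, Fcer1a, Fos, Hsp90aa1, Jun, Ltb4r1, Ly6a, Ms4a4c, Plac8, Rnase6 and Tpsb2, and the 5 were Acsf3, Cirbp, Nmnat3, Rad18 and Tmem120b. Jun, Plac8 and Nmnat3 were looked at after their values were seen. Nmnat3, an enzyme of mitochondrial NAD synthesis, differed by -0.53 in control mice with tumour cells, -0.61 in sham mice and -0.53 in Bmal1ΔcDC mice. Cirbp differed by -0.63, -0.38 and -0.38, and Plac8, a gene of myeloid and lymphoid cells, by 0.88, 0.64 and 1.12.

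The difference of the alternation between groups of mice was tested directly. It was called for 15 genes between tumour and sham (0.125%) and for 6 between control and Bmal1ΔcDC mice (0.0502%). The former included 10 genes higher at ZT9 and ZT21 in control mice with tumour cells. Pnisr differed by -1.24 in control mice with tumour cells and by 0.23 in sham mice (limma adjusted p of the difference 0.0441), Pnn by -0.72 and 0.22 (limma adjusted p = 0.0476) and Kmt2a by -0.56 and 0.32 (limma adjusted p = 0.0441). Between genotypes, Zfc3h1 differed by -1.03 in control mice and 0.05 in Bmal1ΔcDC mice and Rufy2, an endosomal adaptor gene, by -1.18 and 0.31 (both with a limma adjusted p of 0.0436). These calls were not stable. Each count fell to 0 in 21 of the 32 fits that left out 1 library and with the replicate number as a block, the count of 15 also with median-of-ratios scaling, and they rose to 207 and 33 without ZT15 replicate 2. Pnisr, Pnn, Kmt2a and Rufy2 were singled out after their values were seen.

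**Figure D5:**
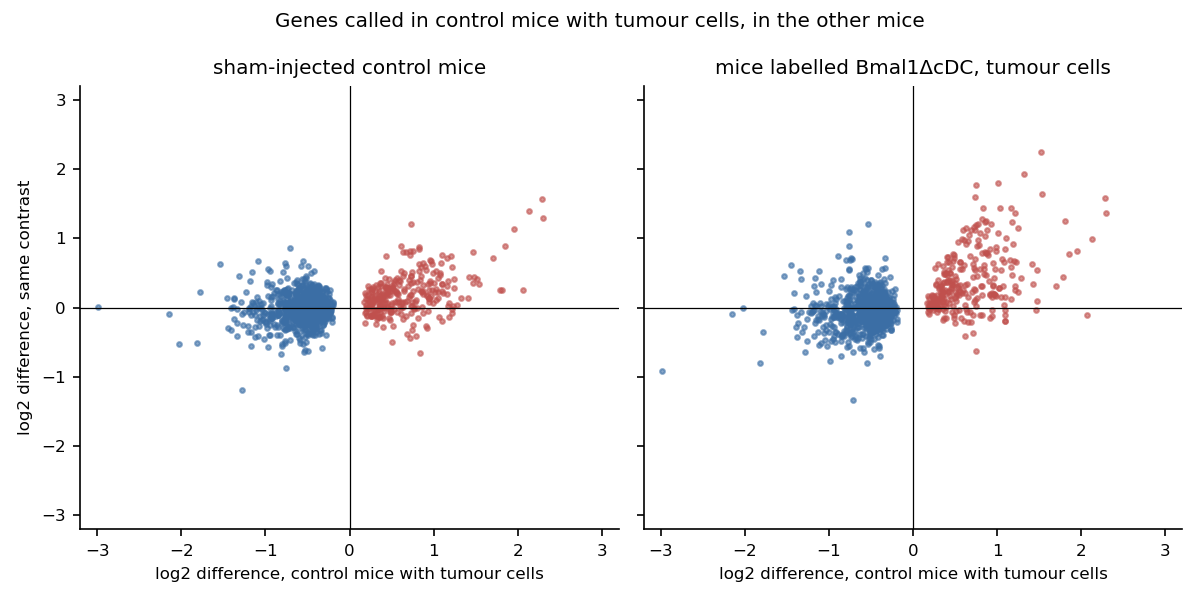
Log2 difference (ZT3 and ZT15 minus ZT9 and ZT21) in sham mice and in Bmal1ΔcDC mice (y axes) against that in control mice with tumour cells (x axes), for the called genes, coloured by side. Same-sign shares are 75.6% and 52.8% in sham mice and 84.9% and 60.5% in Bmal1ΔcDC mice for the ZT3 and ZT15 and the ZT9 and ZT21 side, respectively.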

How the data were processed

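RNA from sorted CD45+CD11c+MHCIIhigh cells of enzymatically digested nodes was reverse transcribed with the SMART-Seq kit and libraries were made with Nextera XT. Per the submitters' processing notes and the methods, single reads of 50 bases were aligned to mm10 with STAR 2.7.0 and counted with HTSeq 0.9.1, and edgeR scaled them by library size. The authors deposited 1 table of CPM with 44 columns, each adding up to 1000000.

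Linear models of log2(CPM + 0.5) were fitted with limma 3.58.1 in R 4.3.3 to the 20 libraries of control mice with tumour cells, with 4 timepoint means and moderated variances, and p-values were adjusted by Benjamini-Hochberg over 11963 genes. Fold changes on this scale understate changes of low genes. Sham and Bmal1ΔcDC libraries were fitted separately (12 each), and interactions on 32. Library measures were tested with 100000 permutations. p-values measure the spread between single mice. Scripts were tested on simulated data. No 2 libraries held identical values.

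Members and gene lists were chosen with earlier results of these data known. The genes named were, for each side, the 12 with the smallest p (alternating means, mean of at least 5 CPM), the 5 with the largest difference, up to 4 called members of a list, and Arntl, Per1, Dbp, Insig1 and Cd80; others with values were chosen after their values were seen. Of all list members called, some are named without further values. Between 87.5% and 89.3% of the values of a library were whole multiples of a read (within 0.01 of a read) and the rest were not, so no count test was run. Promoters and coordinates are from RefSeq (GRCm38.p6), of which 9626 promoters matched genes tested, and gene structure is from GENCODE vM21. Alternatives comprised pseudocounts, scaling, filters, variance models, the replicate number as a block, covariates and the omission of single libraries. Some members of the gene lists were counted but are not reported here by name.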

Additional observations from a re-analysis of the deposited data

Results flagged for a closer look

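In 4 timepoint groups of 91 genes named or considered for the text (364 groups of 5 libraries), 30 groups of 28 genes had a library far from the other 4 by Dixon's test at the 95% level, 8.24% of the groups. Chance alone gives about 1 in 20 groups, and genes that move together are not independent.

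ZT15 replicate 2 was the highest of its timepoint in 11 of them. It held 23.5 CPM of Ccl4 (next library 9.60), 39.4 CPM of Cxcl10 (19.5), 105 CPM of Zfc3h1 (72.8), 41.8 CPM of Pnisr (24.5) and 46.0 CPM of Pnn (35.0). It also held 6.91 CPM of Prr33 (3.08), 8.85 CPM of Sap25 (0.0613), 5.81 CPM of Tnni3 (1.10), 156 CPM of Rbm25 (102), 132 CPM of Prpf38b (88.7) and 362 CPM of Il15ra (237). In the 9 genes of these that are higher at ZT9 and ZT21, this library thus lay towards the other side.

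Also at ZT15, replicate 5 was the lowest for Egr1 (197 CPM, next 309.7) and Junb (1302 CPM, next 1786), replicate 1 the highest for F2r (14.3 CPM) and replicate 3 the highest for Insig1 (50.9 CPM). At ZT3, replicate 3 was the highest for Cd74 (17565 CPM, next 11227) and H2-Ab1 (3354 CPM, next 2269), replicate 1 the highest for Il2rb (33.3 CPM), and replicate 4 the lowest for Ldha (211 CPM). At ZT9, replicate 1 was the highest for Nr4a1 (83.1 CPM, next 41.9), Ccl4 (6.58 CPM), Cd209e (6.15 CPM) and Fbxl12 (45.1 CPM) and the lowest for Ncr1 (0 CPM). Replicate 4 of ZT9 was the highest for Chd7 (141 CPM) and the lowest for Dbp (33.5 CPM), and replicate 5 the lowest for Catsperg1 (9.07 CPM) and Baz2b (80.3 CPM). At ZT21, replicate 1 was the lowest for Hsp90aa1 (271 CPM) and the highest for Prr33 (28.9 CPM).

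The alternation differed between tumour and sham in 15 genes (limma, adjusted p under 0.05), with the difference counted as control mice with tumour cells minus sham. It was -2.22 for P2rx2, -1.52 for Maged2, -1.47 for Pnisr, -1.25 for Gkap1, -1.23 for Slc38a6, -1.10 for 9930104L06Rik, -0.98 for Fbxl12, -0.98 for Spopl and -0.97 for Fkbpl. It was -0.94 for Pnn, -0.88 for Kmt2a, -0.77 for Csad, -0.70 for Cdk11b, -0.51 for Htra2 and 1.14 for Vwa7. Of these, Maged2, Gkap1, Vwa7, Fkbpl and P2rx2 were not called in control mice with tumour cells. Between control and Bmal1ΔcDC mice with tumour cells, 6 genes differed, with -1.74 for Gm7694, -1.49 for Rufy2, -1.08 for Zfc3h1, -0.92 for Taf15, -0.81 for Prrc2c and -0.72 for Asap2, and all 6 were higher at ZT9 and ZT21 in control mice.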

How the results depend on the processing

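Between 817 and 1275 genes were called under the other settings run, apart from array weights (1766, with 460 higher at ZT3 and ZT15, 1306 higher at ZT9 and ZT21 and 1671 with alternating means). Median-of-ratios scaling gave 517 and 494 genes on the 2 sides, and the T cell covariate 182 higher at ZT3 and ZT15 and 635 higher at ZT9 and ZT21. Without single libraries the counts were 733 to 1457 in all, 169 to 306 higher at ZT3 and ZT15, 564 to 1157 higher at ZT9 and ZT21 and 716 to 1422 with alternating means. The lowest came without ZT3 replicate 2.

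The 24-h components gave 2 genes with median-of-ratios scaling, 52 at a mean of at least 10 CPM, 63 with an intensity trend, 670 with array weights, 36 with ordinary least squares and 0 with the T cell covariate, and 1 to 257 without single libraries (257 without ZT3 replicate 3). In sham mice, all genes of the table gave 2 and omissions 0 to 1. In Bmal1ΔcDC mice, an intensity trend gave 3, 1 fit of 44 libraries 43 and omissions 0 to 4.

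The interaction with treatment gave 0 genes with a pseudocount of 0.1, median-of-ratios scaling, the reads covariate or the T cell covariate, 89 at a mean of at least 10 CPM, 87 with an intensity trend, 74 with array weights, 27 with ordinary least squares, 64 in 1 fit and 0 to 207 without single libraries. The interaction with genotype gave 0 with all genes of the table or the reads covariate, 12 at a mean of at least 10 CPM, 176 with array weights, 1 with ordinary least squares, 24 in 1 fit, 11 with the T cell covariate and 0 to 33 without single libraries.

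Replicate numbers did not pair the libraries. Deviations of same-numbered libraries correlated with r of -0.237 to 0.163 over 30 pairs, 3 of which were over 0.1, and 3 of 20 libraries correlated best with their own number. With the replicate number as a block, 872 genes were called, the 24-h components gave 1 and both interactions 0, and Cd74, H2-Ab1, H2-DMa, H2-DMb1 and Insig1 lost their call.

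Cd80 changed sign when single libraries were left out (-0.054 to 0.058, not called in any). A single read was worth less than 0.05 CPM in every library, so that differences near this level cannot be resolved. The test of edgeR on recovered reads was not run.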

Other observations

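Gene groups not yet described held few calls. Among 26 genes of the unfolded protein response, 20 of the TCA cycle, 45 of ribosome biogenesis, 25 of the nuclear pore, 26 of autophagy and 38 of the cell cycle, at most 1 was called on each side. Over all genes, 2.33% were higher at ZT3 and ZT15 and 7.17% at ZT9 and ZT21. With median-of-ratios scaling, 4 genes of the unfolded protein response and 2 of the cell cycle were higher at ZT3 and ZT15. Of 46 DNA repair genes, 3 (6.52%, below the 7.17% of all genes) were higher at ZT9 and ZT21, Ddb2, a damage sensor (-0.85), Parp2 (-0.40) and Rad50 (-0.23), and the median was -0.15. With median-of-ratios scaling 1 of the list was called. Of 20 genes of mTOR and AKT signalling, 3 were higher at ZT9 and ZT21 (15%, against 7.17% of all genes), with a median of -0.10. They were Tsc1, an inhibitor of mTORC1 (-0.43), Rictor, a subunit of mTORC2 (-0.34), and Rps6kb1, which encodes an S6 kinase (-0.34). With median-of-ratios scaling 2 genes of mTOR and AKT signalling were higher at ZT9 and ZT21 (10%, against 4.13% of all genes). The medians of these lists compare with -0.07 over all genes. Of 15 genes of MHC class I presentation, 2 were higher at ZT9 and ZT21 (13.3%, against 7.17% of all genes). They were Nlrc5, the transactivator of MHC class I genes (-0.64), and H2-M3 (-0.28). With median-of-ratios scaling 1 of the 15 was called (6.67%, against 4.13% of all genes).

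Markers of type 1 conventional dendritic cells were higher at ZT3 and ZT15 in 1 of 15 genes (6.67%, against 2.33% of all genes). Those of plasmacytoid dendritic cells were higher there in 1 of 10 (10%), and of 10 Langerhans cell markers none was called. With median-of-ratios scaling, 2 type 1 markers and 4 plasmacytoid markers were higher at ZT3 and ZT15, as were 517 of all 11963 genes. The summed level of the type 1 markers was 944 to 1207 CPM at ZT3 and ZT15 and 1010 to 1157 CPM at ZT9 and ZT21, and that of the Langerhans cell markers 1409 to 1915 CPM and 1379 to 1981 CPM. The plasmacytoid markers added up to 303 to 369 CPM at ZT3 and ZT15 and 267 to 347 CPM at ZT9 and ZT21. Solute carriers, transporters of the plasma membrane and organelles, were higher at ZT9 and ZT21 in 16 of 221 genes (7.24%) and at ZT3 and ZT15 in 2 (0.905%), near or below the shares of all genes (7.17% and 2.33%). Median-of-ratios scaling gave 11 and 8 of them.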
